A study of Mus musculus with 20 samples.

Results

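Transcripts of 33 genes of sterol and fatty acid synthesis under control of the sterol regulatory element-binding proteins (SREBPs) were followed in mouse macrophages with and without silencing of Brg1. The genes were chosen by symbol, from their known function, with earlier results of these data known. They comprise 8 genes of the mevalonate arm, 10 genes between squalene and cholesterol, 6 genes of sterol sensing and transport, and 9 genes of fatty acid synthesis and desaturation. All 33 were found in the deposited table of 17787 genes, and all 33 were among the 12061 genes that passed the filter on low values.

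RNA was sequenced from bone marrow-derived macrophages of male wild type C57BL/6J mice, grown from marrow for 7 days in medium with supernatant of L929 cells. The cells were transfected with 50 nM of siRNA against Brg1 or of control siRNA in serum-free medium, with a single siRNA product per arm, and silencing lasted 48 h. For the last 6 h they received vehicle (ethanol and D-PBS), lipopolysaccharide (LPS, a bacterial cell wall component, 100 ng/ml, with ethanol), or 1 µM dexamethasone (Dex, a synthetic glucocorticoid) together with 100 ng/ml LPS. The groups are Brg1 siRNA with vehicle (n = 3), with LPS (n = 3) and with Dex+LPS (n = 4), and control siRNA with vehicle (n = 3), with LPS (n = 3) and with Dex+LPS (n = 4). The series' design text speaks of 3 replicates per condition, while the labels give 4 in both Dex+LPS groups. Nothing in the labels says whether replicates came from separate animals or cultures, so p-values reflect no more than the scatter among these libraries, which may be technical. The labels also give each library a number. The numbers of 4 libraries begin with 18, apart from the other 16: replicate 2 of Brg1 siRNA with LPS, replicate 4 of Brg1 siRNA with Dex+LPS, replicate 3 of control siRNA with LPS and replicate 4 of control siRNA with Dex+LPS. None of the 4 is a vehicle library, and what the number stands for is not given in the labels.

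Cells make cholesterol from acetyl-CoA through mevalonate, farnesyl diphosphate, squalene and lanosterol, and they make fatty acids from acetyl-CoA through malonyl-CoA, elongation and desaturation. SREBPs are membrane-bound transcription factors that the escort protein Scap carries to the Golgi for cleavage when sterols are low, while Insig proteins hold the complex back when sterols are high. The protein of Srebf2 acts mainly on sterol genes and that of Srebf1 mainly on fatty acid genes. In macrophages both arms set the lipid composition of membranes and are known to change during inflammatory activation.

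Normalized counts below are reads per gene divided by the authors' size factor of each library. They carry no correction for gene length, so levels are compared between groups and never between genes. Library depth ranged between 13.69 M and 18.71 M reads. Smarca4, which encodes Brg1, averaged 354 ± 12.9 with Brg1 siRNA and 1547 ± 75.6 with control siRNA in vehicle (SD, n = 3 each). In LPS it averaged 594 ± 31.2 with Brg1 siRNA and 2880.0 ± 121 with control siRNA (n = 3 each), and in Dex+LPS 458 ± 44.0 with Brg1 siRNA and 1966 ± 186 with control siRNA (n = 4 each). No Smarca4 value with Brg1 siRNA reached a value with control siRNA of the same treatment. All 9 macrophage markers passed the filter. Their summed normalized counts were 291532 to 301997 with Brg1 siRNA and 239056 to 252186 with control siRNA in vehicle, 415696 to 428665 with Brg1 siRNA and 272454 to 288010 with control siRNA in LPS, and 347446 to 356584 with Brg1 siRNA and 276393 to 319060 with control siRNA in Dex+LPS, so that these sums were higher with Brg1 siRNA in every treatment. A sum follows the most abundant markers, and the single macrophage markers went both ways. With Brg1 siRNA 3 of the 9 were called higher and 3 lower in vehicle (limma adjusted p under 0.05). In LPS 5 were called higher and 2 lower, and in Dex+LPS 5 and 3. The shares over all genes are given with the knockdown comparisons below. Neutrophil and granule markers (5 of 8 passed) summed to 67.8 to 565, and in Dex+LPS to 504 to 565 with Brg1 siRNA and 353 to 485 with control siRNA. Sums of the B cell, T and NK cell, dendritic cell, mast cell and fibroblast markers in the table were at most 37.2. The part of these marker differences in the results was not tested.

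Promoter windows of 300 bases, 250 before the start site and 50 after it, were available in RefSeq (GRCm38.p6) for 26 of the 33 genes, in 34 windows. The window of Hmgcs1 is shown because it alone among these windows holds an exact match to the searched form of the sterol regulatory element (TCACNCCAC). That of Hsd17b7 is shown because this gene had the largest rise with LPS and control siRNA among the 33, and those of Acss2 and Fads2 because these were among the largest falls with Brg1 siRNA. Each is written from 5′ to 3′ on the gene's strand, and capitals mark a sterol regulatory element (TCACNCCAC) or an NF-Y box (CCAAT) on either strand. The window of Hmgcs1, HMG-CoA synthase, lies at chr13:119690101-119690400 on the plus strand, and that of Hsd17b7, a sterol reductase, at chr1:169969156-169969455 on the minus strand. The window of Acss2, which makes acetyl-CoA from acetate, lies at chr2:155517793-155518092 on the plus strand. That of Fads2, a desaturase of polyunsaturated fatty acids, lies at chr19:10101454-10101753 on the minus strand.
Hmgcs1: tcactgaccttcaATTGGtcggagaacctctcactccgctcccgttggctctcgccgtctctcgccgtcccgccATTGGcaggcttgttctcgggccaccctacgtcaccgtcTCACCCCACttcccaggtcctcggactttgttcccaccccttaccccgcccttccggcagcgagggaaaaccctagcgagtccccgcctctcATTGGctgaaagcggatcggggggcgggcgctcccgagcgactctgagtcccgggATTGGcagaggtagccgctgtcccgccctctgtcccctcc
Hsd17b7: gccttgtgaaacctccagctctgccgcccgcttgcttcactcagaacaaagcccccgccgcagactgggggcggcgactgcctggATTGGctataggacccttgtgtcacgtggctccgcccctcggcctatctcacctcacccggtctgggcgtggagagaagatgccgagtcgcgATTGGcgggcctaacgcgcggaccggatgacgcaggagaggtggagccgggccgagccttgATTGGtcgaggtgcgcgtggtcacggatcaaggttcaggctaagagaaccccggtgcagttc
Acss2: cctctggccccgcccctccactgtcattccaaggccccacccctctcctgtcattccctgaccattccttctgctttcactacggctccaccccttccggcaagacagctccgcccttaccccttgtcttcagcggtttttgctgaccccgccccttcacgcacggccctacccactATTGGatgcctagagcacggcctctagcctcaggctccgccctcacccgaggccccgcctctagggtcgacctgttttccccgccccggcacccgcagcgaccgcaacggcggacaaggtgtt
Fads2: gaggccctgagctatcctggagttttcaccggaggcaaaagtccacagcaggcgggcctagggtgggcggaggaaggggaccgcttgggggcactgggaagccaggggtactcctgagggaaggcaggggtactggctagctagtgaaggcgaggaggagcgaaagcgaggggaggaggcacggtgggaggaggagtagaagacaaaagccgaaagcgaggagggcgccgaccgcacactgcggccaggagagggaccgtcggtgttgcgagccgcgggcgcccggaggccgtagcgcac
The Hmgcs1 window holds the element TCACCCCAC, starting at position -137 relative to the start site, and 4 NF-Y boxes. The Hsd17b7 window holds 3 NF-Y boxes, the Acss2 window holds 1, and the Fads2 window holds 0.

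Over all windows of the 33 genes, an exact match to the sterol regulatory element TCACNCCAC was found in 1 of 34 (2.94%), against 1.24% of the 32851 windows in the RefSeq table. NF-Y boxes were found in 22 of 34 windows (64.7%), against 37.4% of all windows. Sp1 boxes (GGGCGG, either strand) were found in 26 of 34 windows (76.5%), against 35.7% of all windows. In no window of these genes did the NF-Y and Sp1 matches overlap each other, nor did the sterol regulatory element overlap either. Only exact matches were counted. A stretch that departs from the searched form by a base, such as TCACCCCAT in the Srebf2 window, was not counted, so a window without a match may still hold a variant element. Several windows belong to the same gene, and a match of letters is a description, not a measured binding site.

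The knockdown comparisons set Brg1 siRNA against control siRNA within each treatment and ask which of these transcripts depend on Brg1. Every call among the 33 genes in the limma fit over all 6 groups was a fall. In vehicle 0 of the 33 were called higher and 13 lower, where a call is a limma adjusted p under 0.05 over all 12061 genes. In LPS the counts were 0 higher and 16 lower, and in Dex+LPS 0 higher and 20 lower. Over all genes tested, 9.39% were called higher and 10.8% lower in vehicle, 17.3% higher and 15.8% lower in LPS, and 19.0% higher and 15.3% lower in Dex+LPS. The median log2 fold change of the 33 genes was -0.33 in vehicle, -0.32 in LPS and -0.46 in Dex+LPS, against 0.0050, 0.0084 and 0.0087 over all genes tested. RNA was measured in bulk, so fewer cells expressing a gene and less RNA per cell cannot be told apart. The 3 comparisons share no samples.

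Fdps, Fdft1, Sqle, Acly, Acss2, Scd1, Scd2 and Fads2 were lower in all 3 treatments. These 8 of 33 genes compare with 4.59% of all genes tested that were lower in all 3. The 9 genes that were called in none were Hmgcs1, Idi1, Tm7sf2, Ebp, Dhcr7, Srebf1, Srebf2, Scap and Acaca, of which Hmgcs1, Idi1, Srebf2 and Scap were called in some alternative processings, given with each gene. With each library scaled to its plain read total, 15, 21 and 26 genes were lower in vehicle, LPS and Dex+LPS, and 0 were higher. The added calls included Hmgcs1, Idi1 and Srebf2. That scaling moved the median of all genes by -0.033, -0.13 and -0.10. The median of the 33 genes was then -0.37, -0.45 and -0.57, against -0.028, -0.12 and -0.092 over all genes tested. Shares of all genes called under that scaling are not given here. Of the calls, 11 of 13 in vehicle, 11 of 16 in LPS and 15 of 20 in Dex+LPS held in every alternative processing. Without the 4 libraries numbered from 18, the falls of Nsdhl, Sc5d and Fasn in LPS and of Pmvk, Lss and Hsd17b7 in Dex+LPS were not called. Then Idi1 and Srebf2 in vehicle, Mvk and Srebf2 in LPS, and Idi1 and Srebf2 in Dex+LPS were called lower, and Scap was called higher in vehicle. With the number series as a covariate, no knockdown call was lost.

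**Figure D1:**
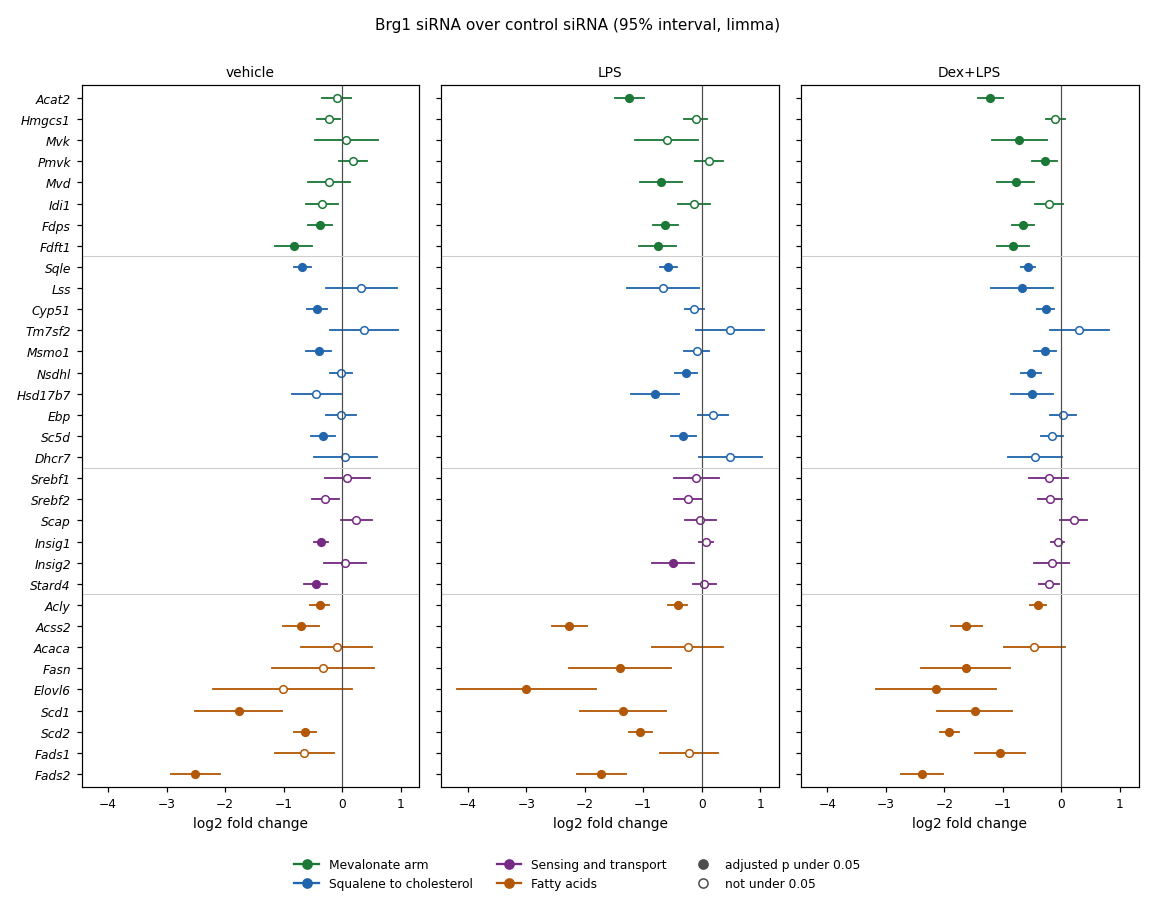
Log2 fold changes of the 33 genes with Brg1 siRNA over control siRNA (x axis, log2) in vehicle, LPS and Dex+LPS, by role, with 95% intervals from limma; filled points have an adjusted p under 0.05. All filled points, 13, 16 and 20 in the 3 panels, lie left of 0, and the farthest left in each panel is a fatty acid gene.

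Of the 9 genes of fatty acid synthesis and desaturation, 5 were lower in vehicle, 7 in LPS and 8 in Dex+LPS, and 0 were higher in any. Their median log2 fold change was -0.65 in vehicle, -1.35 in LPS and -1.63 in Dex+LPS, the lowest of the 4 roles in each treatment. The call of Scd1 in LPS was lost when only the groups compared entered the fit (adjusted p = 0.074).

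Fads2 (chr19:10062765-10101746 in GRCm38, minus strand), the desaturase that begins the synthesis of long polyunsaturated fatty acids, had normalized counts of 38.3, 55.5 and 39.2 with Brg1 siRNA and 282, 242 and 238 with control siRNA in vehicle. In LPS, Fads2 read 24.9, 22.4 and 20.5 with Brg1 siRNA and 72.2, 85.6 and 71.7 with control siRNA. In Dex+LPS, Fads2 read 21.7, 19.0, 33.1 and 30.5 with Brg1 siRNA and 119.6, 146, 140.4 and 142 with control siRNA. Within each treatment all values with Brg1 siRNA lay far below all values with control siRNA. The log2 fold change was -2.51 (SE 0.20, adjusted p = 5.71e-08) in vehicle, -1.71 (SE 0.20, adjusted p = 2.67e-06) in LPS and -2.38 (SE 0.17, adjusted p = 6.4e-09) in Dex+LPS, so that Brg1 siRNA left 17.5%, 29.6% and 19.0% of the control mean.

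The stearoyl-CoA desaturases, which place the double bond of oleate, fell as well. Scd2 (chr19:44293674-44306864, plus strand) read 667, 692 and 631 with Brg1 siRNA and 1035, 1014 and 1043 with control siRNA in vehicle. In LPS, Scd2 read 64.8, 72.3 and 61.4 with Brg1 siRNA and 144, 149 and 121 with control siRNA, and in Dex+LPS 251, 223, 245 and 251 with Brg1 siRNA and 939, 827, 915 and 991 with control siRNA. The groups did not overlap in any treatment, and the gap was widest in Dex+LPS. Log2 fold changes were -0.64 (SE 0.091, adjusted p = 5.85e-05) in vehicle, -1.05 (SE 0.091, adjusted p = 1.07e-07) in LPS and -1.92 (SE 0.079, adjusted p = 7.84e-12) in Dex+LPS. The gap to controls was also seen in Scd1 (chr19:44394455-44407879, minus strand). In vehicle, Scd1 read 14.4, 10.9 and 12.8 with Brg1 siRNA and 39.3, 50.5 and 47.2 with control siRNA. In LPS, Scd1 read 6.23, 2.49 and 6.82 with Brg1 siRNA and 14.7, 20.8 and 8.56 with control siRNA. In Dex+LPS, Scd1 read 8.01, 5.57, 9.62 and 10.2 with Brg1 siRNA and 32.6, 26.7, 22.4 and 18.4 with control siRNA. Every Scd1 value with Brg1 siRNA was under every control value of its treatment, at low counts in LPS (13 reads over the 3 Brg1 siRNA libraries). Its log2 fold changes were -1.77 (SE 0.35, adjusted p = 0.00128), -1.35 (SE 0.35, adjusted p = 0.00632) and -1.48 (SE 0.30, adjusted p = 0.000965). Scd1 and Scd2 share 8.18% and 6.81% of their 31-base words with other genes, most often with each other, so reads of the stretches they have in common could be split between them.

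Acss2 and Elovl6 showed their largest falls in LPS. Acss2 lies at chr2:155517948-155585724 on the plus strand. In vehicle, Acss2 read 76.5, 81.3 and 58.0 with Brg1 siRNA and 119, 95.3 and 139.8 with control siRNA. In LPS, Acss2 read 44.9, 39.9 and 51.1 with Brg1 siRNA and 204, 234 and 224 with control siRNA. In Dex+LPS, Acss2 read 149, 158, 161 and 146 with Brg1 siRNA and 508, 481, 427 and 492 with control siRNA. The siRNA groups stood apart in all 3 treatments. Log2 fold changes were -0.70 (SE 0.14, adjusted p = 0.00175) in vehicle, -2.26 (SE 0.14, adjusted p = 2.62e-09) in LPS and -1.63 (SE 0.13, adjusted p = 1.69e-08) in Dex+LPS. Acss2 shares 7.57% of its 31-base words with other genes, mostly with Gss on the opposite strand.

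Elovl6 (chr3:129532355-129638495, plus strand), which elongates palmitate, read 42.3, 28.1 and 29.8 with Brg1 siRNA and 64.4, 66.3 and 71.6 with control siRNA in vehicle. In LPS, Elovl6 read 3.74, 1.25 and 1.14 with Brg1 siRNA, 5 reads in all, and 27.1, 34.7 and 10.7 with control siRNA. In Dex+LPS, Elovl6 read 1.14, 11.1, 10.7 and 7.39 with Brg1 siRNA and 37.2, 24.6, 47.8 and 19.1 with control siRNA. The siRNA groups did not overlap in any treatment, but the spread was wide at these counts. The log2 fold change was -3.00 (SE 0.57, adjusted p = 0.000471) in LPS and -2.14 (SE 0.49, adjusted p = 0.00233) in Dex+LPS. In vehicle it was -1.01 with a 95% interval of -2.20 to 0.18 (adjusted p = 0.243) and was not called.

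Fasn (chr11:120805846-120824547, minus strand), fatty acid synthase, read 59.8, 114 and 127 with Brg1 siRNA and 187, 68.8 and 133 with control siRNA in vehicle, where the groups overlapped. In LPS, Fasn read 99.7, 63.6 and 93.2 with Brg1 siRNA and 204, 222 and 243 with control siRNA. In Dex+LPS, Fasn read 74.4, 91.4, 113 and 235 with Brg1 siRNA and 231, 379, 338 and 576 with control siRNA. The LPS groups did not overlap, and in Dex+LPS replicate 4 was the highest library of both groups, with the highest Brg1 siRNA value just above the lowest control value. Fasn was called lower in LPS, at -1.40 (SE 0.42, adjusted p = 0.0152), and in Dex+LPS, at -1.63 (SE 0.36, adjusted p = 0.00179), and was not called in vehicle, at -0.32 (SE 0.42, adjusted p = 0.672). Its call in LPS was lost without replicate 2 of Brg1 siRNA with LPS (log2 fold change -1.20, adjusted p = 0.0639).

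Acly, ATP citrate lyase, which supplies acetyl-CoA to both arms, fell by a similar amount in each treatment. Its mean was 1648 ± 27.6 with Brg1 siRNA and 2146 ± 66.6 with control siRNA in vehicle (SD, n = 3 each), and the log2 fold changes were -0.38, -0.41 and -0.39 (limma adjusted p = 0.00132, 0.000382 and 0.000134). Fads1, the other polyunsaturated fatty acid desaturase, was called in Dex+LPS at -1.05 (SE 0.21, adjusted p = 0.000644) and had -0.65 (SE 0.24, adjusted p = 0.0652) in vehicle and -0.22 (SE 0.24, adjusted p = 0.516) in LPS, where its groups did not overlap either. Acaca, acetyl-CoA carboxylase, was called in no treatment, with 95% intervals of -0.70 to 0.51 in vehicle, -0.84 to 0.36 in LPS and -0.99 to 0.059 in Dex+LPS. A share of 33.5% of its 31-base words also occurs in other genes, mostly in Gm5182, which leaves its counts uncertain.

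**Figure D2:**
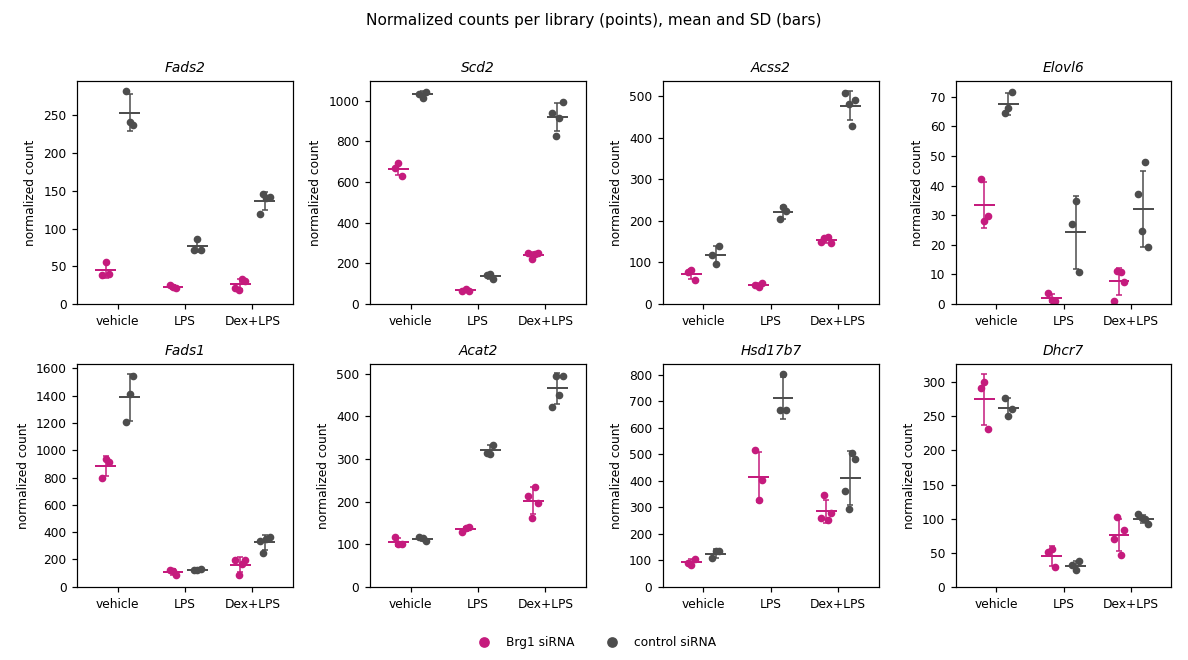
Normalized counts (y axis, starting at 0) of 8 genes in each library by treatment, Brg1 siRNA left of control siRNA; points are libraries and bars are the mean and SD (n = 3, or 4 in Dex+LPS). Fads2, Scd2, Acss2 and Elovl6 sit lower with Brg1 siRNA in every treatment, while Acat2 overlaps in vehicle and is lower with Brg1 siRNA in LPS and Dex+LPS.

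In the mevalonate arm, 2 of 8 genes were lower with Brg1 siRNA in vehicle, 4 in LPS and 6 in Dex+LPS. The median log2 fold change was -0.23 in vehicle, -0.61 in LPS and -0.69 in Dex+LPS. Fdft1 (chr14:63145150-63179578, minus strand), squalene synthase, read 140.3, 164 and 192 with Brg1 siRNA and 318, 282 and 279.6 with control siRNA in vehicle. In LPS, Fdft1 read 496, 416 and 518 with Brg1 siRNA and 806, 841 and 758 with control siRNA. In Dex+LPS, Fdft1 read 488, 495, 546 and 377 with Brg1 siRNA and 845, 1033, 842 and 679 with control siRNA. No value with Brg1 siRNA reached a control value of its treatment, and the log2 fold changes were -0.83 (SE 0.15, adjusted p = 0.000557), -0.75 (SE 0.15, adjusted p = 0.000798) and -0.83 (SE 0.13, adjusted p = 7.08e-05). The gene overlaps Ctsb on the opposite strand by 774 exonic bases and shares 31.9% of its 31-base words, mainly with Ctsb, so its counts are uncertain. Ctsb was higher with Brg1 siRNA in all 3 treatments (log2 fold change 0.31, 0.39 and 0.30, limma adjusted p = 0.00291, 0.000184 and 0.000621).

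Fdps, farnesyl diphosphate synthase, also fell in each treatment, with log2 fold changes of -0.38 (SE 0.10, adjusted p = 0.0106), -0.62 (SE 0.10, adjusted p = 0.000103) and -0.66 (SE 0.087, adjusted p = 1.08e-05). Its call in vehicle was lost without replicate 1 of either siRNA group (adjusted p at most 0.072), and 27.9% of its 31-base words occur in other genes, mainly in Gm43738. Mvd, mevalonate diphosphate decarboxylase, was lower in LPS at -0.69 (SE 0.17, adjusted p = 0.00429) and in Dex+LPS at -0.78 (SE 0.15, adjusted p = 0.000461), with -0.23 (SE 0.17, adjusted p = 0.402) in vehicle. The Dex+LPS calls of 2 kinases of the arm were lost when single libraries were left out. That of Mvk was lost without control replicate 4 or Brg1 siRNA replicate 1 or 2 (adjusted p up to 0.0626 over the alternatives). That of Pmvk was lost without control replicate 2 or 4 or Brg1 siRNA replicate 1 or 2 (up to 0.111). Hmgcs1, which condenses acetoacetyl-CoA to HMG-CoA, was not called in any treatment, with log2 fold changes of -0.23, -0.10 and -0.10 and 95% intervals of -0.42 to -0.036, -0.29 to 0.090 and -0.27 to 0.067. Idi1, the isopentenyl diphosphate isomerase, was likewise not called, with -0.35, -0.14 and -0.21. Whether these falls were called depended on the processing. Hmgcs1 was called lower in all 3 treatments with plain library totals, and in vehicle also with a replicate block and with the number series as a covariate. Idi1 was called lower in vehicle in 6 of 17 alternatives, those with DESeq2, plain library totals, only the groups compared, a replicate block, the series covariate and without the 4 libraries numbered from 18. In Dex+LPS Idi1 was called lower in 4 of 19 alternatives. Shares of 13.1% for Hmgcs1 and 27.1% for Idi1 of their 31-base words lie in other genes, so their counts are uncertain.

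Acat2 (chr17:12942890-12960747, minus strand), the cytosolic acetoacetyl-CoA thiolase at the entry of the mevalonate arm, differed between the siRNA groups in both stimulated conditions. It read 117, 102 and 99.8 with Brg1 siRNA and 116, 115 and 107 with control siRNA in vehicle, where the groups overlapped. In LPS, Acat2 read 129.7, 137 and 139.8 with Brg1 siRNA and 315, 312 and 334 with control siRNA. In Dex+LPS, Acat2 read 214, 161, 235 and 198 with Brg1 siRNA and 422, 496, 451 and 496 with control siRNA. Both stimulated pairs of groups were clearly apart. Log2 fold changes were -0.092 (SE 0.12, adjusted p = 0.67) in vehicle, -1.23 (SE 0.12, adjusted p = 2.96e-07) in LPS and -1.21 (SE 0.10, adjusted p = 4.61e-08) in Dex+LPS. Acat2 shares 43.7% of its 31-base words with other genes, mainly with its near copy Acat3, so its counts are uncertain. Acat3 itself read at most 16.0 in any library, with 2 reads over the Brg1 siRNA libraries and 37 over the control libraries in LPS (limma adjusted p = 0.000369).

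Of the 10 genes between squalene and cholesterol, 4 were lower with Brg1 siRNA in vehicle, 4 in LPS and 6 in Dex+LPS. The median log2 fold change was -0.17, -0.20 and -0.37. Sqle, squalene epoxidase, fell in each treatment, with means of 510.1 ± 39.5 with Brg1 siRNA and 815 ± 29.7 with control siRNA in vehicle, 1001 ± 66.6 with Brg1 siRNA and 1486 ± 62.9 with control siRNA in LPS (SD, n = 3 each), and 747 ± 36.6 with Brg1 siRNA and 1105 ± 22.3 with control siRNA in Dex+LPS (SD, n = 4 each). Its log2 fold changes were -0.68 (SE 0.067, adjusted p = 8.78e-07), -0.57 (SE 0.067, adjusted p = 3.57e-06) and -0.57 (SE 0.058, adjusted p = 5.76e-07). Cyp51, lanosterol demethylase, fell in vehicle at -0.43 (SE 0.079, adjusted p = 0.000672) and in Dex+LPS at -0.27 (SE 0.068, adjusted p = 0.00519), and had -0.12 (SE 0.079, adjusted p = 0.249) in LPS. Hsd17b7, a sterol reductase, fell in LPS at -0.80 (SE 0.20, adjusted p = 0.00437) and in Dex+LPS at -0.50 (SE 0.17, adjusted p = 0.0293). Its call in Dex+LPS was lost without replicate 3 or 4 of control siRNA, or replicate 1, 3 or 4 of Brg1 siRNA, with log2 fold changes between -0.50 and -0.39 (adjusted p up to 0.123 over the alternatives). Some falls of smaller size lost their calls when single libraries were left out. Sc5d, a sterol desaturase, lost its call in vehicle without control replicate 1 or 3 or Brg1 siRNA replicate 1 or 2 (adjusted p up to 0.114 over the alternatives), and in LPS without replicate 2 of either siRNA (up to 0.115). Nsdhl, a sterol dehydrogenase, lost its call in LPS without any single control library or without Brg1 siRNA replicate 1 or 2 (up to 0.0796). In Dex+LPS the call of Lss, lanosterol synthase, was lost without replicate 1, 3 or 4 of either siRNA (up to 0.132), and that of Msmo1, a methylsterol oxidase, without control replicate 2 or Brg1 siRNA replicate 4 (up to 0.0695). Ebp, a sterol isomerase, Dhcr7, a last-step reductase of cholesterol synthesis, and Tm7sf2, a sterol reductase, were called in none of the 3 treatments.

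Of the 6 genes of sensing and transport, 2 were lower with Brg1 siRNA in vehicle, 1 in LPS and 0 in Dex+LPS. In vehicle, Srebf1 read 521, 658 and 775 with Brg1 siRNA and 549.9, 699 and 575 with control siRNA. In LPS, Srebf1 read 485, 663 and 565 with Brg1 siRNA and 623, 605 and 586 with control siRNA. In Dex+LPS, Srebf1 read 582, 435, 456 and 742 with Brg1 siRNA and 586, 567, 617 and 758 with control siRNA. The Srebf1 groups overlapped in every treatment, and the 95% intervals of the log2 fold change were -0.30 to 0.47, -0.48 to 0.29 and -0.55 to 0.12. In vehicle, Srebf2 read 1047, 1167 and 1191 with Brg1 siRNA and 1389, 1359.8 and 1396 with control siRNA. In LPS, Srebf2 read 2571, 3110.4 and 2674 with Brg1 siRNA and 3305, 2944 and 3539 with control siRNA. In Dex+LPS, Srebf2 read 1710.1, 1708, 1811 and 2163 with Brg1 siRNA and 1886, 2011, 1973 and 2566 with control siRNA. In vehicle all Srebf2 values with Brg1 siRNA lay under the control values, while the LPS and Dex+LPS groups overlapped. None of its log2 fold changes, -0.29 (SE 0.11, adjusted p = 0.0862), -0.23 (SE 0.11, adjusted p = 0.13) and -0.19 (SE 0.097, adjusted p = 0.153), was called. Srebf2 was called lower in all 3 treatments with a replicate block, with the number series as a covariate and without the 4 libraries numbered from 18. It was also called lower in vehicle with only the groups compared, in LPS and Dex+LPS with plain library totals, and in Dex+LPS without replicate 4 of Brg1 siRNA. Over the alternatives its adjusted p was 0.00172 to 0.269 in vehicle, 0.00561 to 0.351 in LPS and 0.00816 to 0.473 in Dex+LPS.

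Scap encodes the escort protein of the SREBPs. In vehicle, Scap read 609.9, 664 and 647 with Brg1 siRNA and 513, 534 and 582 with control siRNA. In LPS, Scap read 1019, 1021 and 846 with Brg1 siRNA and 989.8, 893 and 1052 with control siRNA. In Dex+LPS, Scap read 706, 691, 749 and 958 with Brg1 siRNA and 623, 613, 625 and 820.3 with control siRNA. In vehicle all its values with Brg1 siRNA lay above the control values, and in LPS and Dex+LPS the groups overlapped. It was not called in any treatment, with log2 fold changes of 0.24, -0.027 and 0.21, and 11.3% of its 31-base words lie in other genes. Scap was called higher in vehicle with only the groups compared, with the series covariate and without the 4 libraries numbered from 18 (adjusted p 0.0372 to 0.428 over 17 alternatives). In Dex+LPS it was called higher with a replicate block, with the series covariate and without replicate 4 of control siRNA (0.0258 to 0.518 over 19 alternatives). In vehicle, Insig2 read 513, 513 and 373 with Brg1 siRNA and 469, 481 and 395 with control siRNA. In LPS, Insig2 read 248, 439.9 and 286 with Brg1 siRNA and 397, 488 and 449 with control siRNA. In Dex+LPS, Insig2 read 462, 381, 442 and 373 with Brg1 siRNA and 456, 461, 451 and 488 with control siRNA. Insig2 was called in LPS alone, at -0.49 (SE 0.17, adjusted p = 0.0321), although its groups overlapped there. That call was lost with only the groups compared, and without replicate 2 or 3 of control siRNA with LPS or replicate 1 or 3 of Brg1 siRNA with LPS, with log2 fold changes between -0.48 and -0.32 (adjusted p up to 0.18).

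Insig1 and Stard4 were lower with Brg1 siRNA in vehicle and not called in LPS or Dex+LPS. Insig1 retains the SREBP complex in the endoplasmic reticulum. In vehicle, Insig1 read 566, 646 and 609.6 with Brg1 siRNA and 795, 759.9 and 780.3 with control siRNA. In LPS, Insig1 read 1855, 1940.3 and 1965 with Brg1 siRNA and 1711, 1830.2 and 1942 with control siRNA. In Dex+LPS, Insig1 read 1623, 1696, 1698 and 1724 with Brg1 siRNA and 1686, 1733, 1776 and 1839 with control siRNA. Only the vehicle groups did not overlap, and the log2 fold changes were -0.36 (SE 0.059, adjusted p = 0.000219), 0.072 (SE 0.059, adjusted p = 0.378) and -0.061 (SE 0.051, adjusted p = 0.386). Stard4 carries cholesterol between membranes. In vehicle, Stard4 read 458, 535 and 532 with Brg1 siRNA and 699, 662 and 723 with control siRNA. In LPS, Stard4 read 1416, 1339.6 and 1441 with Brg1 siRNA and 1409, 1344 and 1315 with control siRNA. In Dex+LPS, Stard4 read 1111, 1201, 1237 and 1111 with Brg1 siRNA and 1457, 1085, 1449.8 and 1422 with control siRNA. Here too the vehicle groups were apart and the others overlapped, with log2 fold changes of -0.45 (SE 0.096, adjusted p = 0.00215), 0.045 (SE 0.096, adjusted p = 0.761) and -0.21 (SE 0.083, adjusted p = 0.0625). In Dex+LPS replicate 2 of control siRNA, at 1085, lay under the other libraries of both groups. There Stard4 was called lower by edgeR, by DESeq2, with plain library totals and without that replicate, and in the authors' deposited table.

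**Figure D3:**
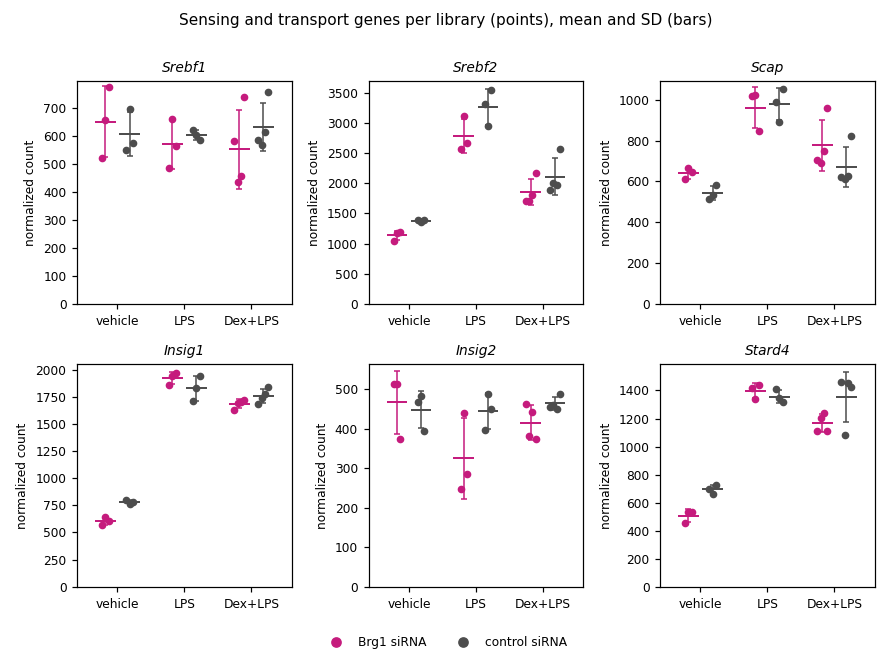
Normalized counts (y axis, starting at 0) of the 6 sensing and transport genes in each library by treatment, Brg1 siRNA left of control siRNA; points are libraries and bars are the mean and SD (n = 3, or 4 in Dex+LPS). Srebf2, Insig1 and Stard4 are higher in LPS than in vehicle, as is Scap except that with plain library totals its change with Brg1 siRNA is -0.098, and Insig1 and Stard4 are lower with Brg1 siRNA in vehicle.

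The LPS response sets LPS against vehicle within an siRNA arm and asks how these genes answer 6 h of a Toll-like receptor stimulus. Of the 33 genes, 16 were higher and 10 lower with Brg1 siRNA, and 19 were higher and 8 lower with control siRNA. Over all genes tested, 35.4% were higher and 37.4% lower with Brg1 siRNA, and 36.0% higher and 37.0% lower with control siRNA. The median log2 fold change of the 33 genes was 0.21 with Brg1 siRNA and 0.85 with control siRNA, against -0.055 and -0.037 over all genes tested. Plain library totals moved the median of all genes by -0.67 with Brg1 siRNA and by -0.57 with control siRNA. The split was then 12 higher and 16 lower with Brg1 siRNA, and 14 and 14 with control siRNA. Under these totals the median of the 33 genes was -0.47 with Brg1 siRNA and 0.27 with control siRNA, against -0.72 and -0.61 over all genes tested. Acat2 and Acly with Brg1 siRNA, and Pmvk, Nsdhl and Acly with control siRNA, were then called in the opposite direction. Of the calls, 20 of 26 with Brg1 siRNA and 20 of 27 with control siRNA held in every alternative.

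In the mevalonate arm 6 of 8 genes rose and 1, Mvk, fell with LPS and Brg1 siRNA, and 7 rose and 0 fell with control siRNA, with the exceptions of Acat2 and Pmvk under plain totals given above. Idi1 averaged 2424 ± 379 in LPS and 518 ± 13.9 in vehicle with Brg1 siRNA, and 2649 ± 198 in LPS and 662 ± 48.7 in vehicle with control siRNA (SD, n = 3 each). Its log2 fold changes were 2.21 (SE 0.13, adjusted p = 2.76e-11) with Brg1 siRNA and 2.00 (SE 0.13, adjusted p = 1.26e-10) with control siRNA. Hmgcs1 averaged 3005 ± 272 in LPS and 949 ± 78.1 in vehicle with Brg1 siRNA, and 3219.9 ± 155 in LPS and 1111 ± 67.7 in vehicle with control siRNA. For Hmgcs1 the log2 fold changes were 1.66 (SE 0.091, adjusted p = 1.03e-11) and 1.54 (SE 0.091, adjusted p = 3.44e-11). The call of Mvk with Brg1 siRNA (adjusted p = 0.0475) held in 8 of 17 alternatives, and that of Pmvk with control siRNA (adjusted p = 0.0469) in 5 of 17.

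Hsd17b7 (chr1:169949535-169969241, minus strand) had the largest rise of the 33 genes with control siRNA. With Brg1 siRNA it read 515, 328 and 402 in LPS and 88.5, 82.9 and 105 in vehicle. With control siRNA it read 666, 803 and 667 in LPS and 107, 133 and 135 in vehicle. All LPS values lay above all vehicle values, with log2 fold changes of 2.14 (SE 0.20, adjusted p = 1.65e-08) with Brg1 siRNA and 2.50 (SE 0.20, adjusted p = 1.93e-09) with control siRNA. Of the 10 genes between squalene and cholesterol, 5 rose and 2 fell with Brg1 siRNA, and 6 rose and 3 fell with control siRNA; under plain totals the rise of Msmo1 with Brg1 siRNA and that of Nsdhl with control siRNA turned negative. Cyp51, Sc5d and Sqle rose with log2 fold changes of 1.83, 1.28 and 0.97 with Brg1 siRNA and 1.53, 1.26 and 0.86 with control siRNA (limma adjusted p at most 2.01e-09).

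Late steps of cholesterol synthesis went the other way. Dhcr7 (chr7:143823145-143848410, plus strand) read 51.1, 56.1 and 28.4 in LPS and 292, 300.3 and 232 in vehicle with Brg1 siRNA, and 31.6, 24.3 and 37.4 in LPS and 277, 250.2 and 261 in vehicle with control siRNA. LPS values stayed far below vehicle values in both arms, with log2 fold changes of -2.63 (SE 0.25, adjusted p = 3.38e-08) with Brg1 siRNA and -3.06 (SE 0.25, adjusted p = 4.13e-09) with control siRNA. Ebp, the sterol isomerase, was also lower, at -0.72 (SE 0.12, adjusted p = 3.58e-05) with Brg1 siRNA and -0.93 (SE 0.12, adjusted p = 1.79e-06) with control siRNA. Tm7sf2 had -0.56 (SE 0.27, adjusted p = 0.0751) with Brg1 siRNA and was called lower with control siRNA at -0.67 (SE 0.27, adjusted p = 0.0358). The control call of Tm7sf2 was lost in 6 of 17 alternatives, among them those without replicate 1 or 2 of control siRNA with vehicle or with LPS (adjusted p up to 0.207 over the alternatives), and 13.3% of its 31-base words lie in other genes, mainly in Vps51.

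Among fatty acid genes 1 rose and 6 fell with Brg1 siRNA, and 2 rose and 5 fell with control siRNA. The rise of Acly in both arms turned to a fall under plain totals. The desaturases and the elongase fell with LPS in both arms. Fads1 (chr19:10182888-10196877, plus strand) read 119.7, 118 and 85.2 in LPS and 797, 939 and 916 in vehicle with Brg1 siRNA. With control siRNA it read 122, 124 and 127 in LPS and 1207, 1410.3 and 1543 in vehicle. The drop was the deepest of the 33 genes with control siRNA, and the log2 fold changes were -3.04 (SE 0.24, adjusted p = 1.73e-09) with Brg1 siRNA and -3.46 (SE 0.24, adjusted p = 2.7e-10) with control siRNA. Scd2, whose values are given above, had -3.31 (SE 0.091, adjusted p = 4.1e-16) with Brg1 siRNA and -2.90 (SE 0.091, adjusted p = 2.83e-15) with control siRNA. Fads2, Scd1 and Elovl6 fell with log2 fold changes of -0.93, -1.23 and -3.58 with Brg1 siRNA and -1.72, -1.65 and -1.59 with control siRNA (limma adjusted p at most 0.0175). The control call of Elovl6 was lost without replicate 3 of control siRNA with LPS (log2 fold change -1.11, adjusted p = 0.106).

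Among the genes of sensing and transport, Srebf2, Insig1 and Stard4 rose with LPS in both arms. Log2 fold changes with Brg1 and control siRNA were 1.29 and 1.24 for Srebf2, 1.66 and 1.23 for Insig1, and 1.46 and 0.96 for Stard4 (limma adjusted p at most 4.92e-08). Scap also rose, at 0.58 (SE 0.13, adjusted p = 0.000439) with Brg1 siRNA and 0.85 (SE 0.13, adjusted p = 8.05e-06) with control siRNA, but under plain library totals it was not called in either arm and turned negative with Brg1 siRNA (-0.098). Srebf1 was not called in either arm, with 95% intervals of -0.57 to 0.20 and -0.38 to 0.39. Insig2 fell with Brg1 siRNA at -0.55 (SE 0.17, adjusted p = 0.00713) and was not called with control siRNA at -0.011 (SE 0.17, adjusted p = 0.956). Without replicate 1 of Brg1 siRNA with LPS its fall was not called (log2 fold change -0.38, adjusted p up to 0.0678 over the alternatives).

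**Figure D4:**
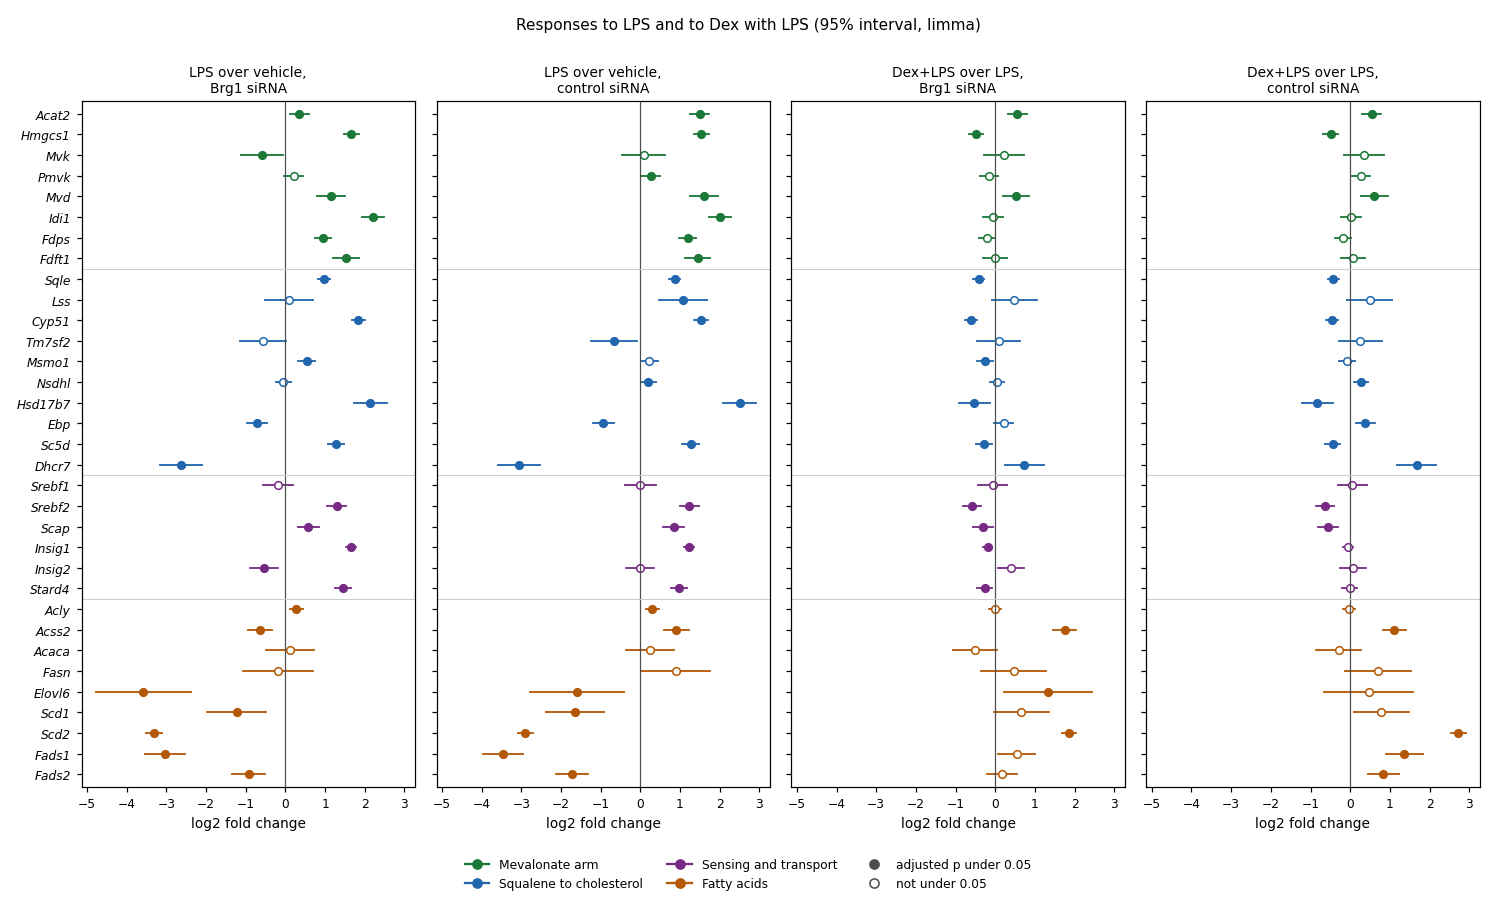
Log2 fold changes of the 33 genes (x axis, log2) for LPS over vehicle and for Dex+LPS over LPS, each with Brg1 siRNA left of control siRNA, by role, with 95% intervals from limma; filled points have an adjusted p under 0.05. With LPS most mevalonate genes lie right of 0 (under plain library totals Acat2 with Brg1 siRNA and Pmvk with control siRNA do not) and the desaturases left of it, and with Dex added Scd2 lies farthest right in both arms. The LPS and Dex panels of an siRNA share their LPS libraries.

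The Dex response sets Dex+LPS against LPS and asks how a glucocorticoid modifies the stimulated state. It shares its LPS libraries with the LPS response of the same siRNA, so the pair of responses is not independent. With Dex added, 6 of the 33 genes were higher and 10 lower with Brg1 siRNA, and 9 were higher and 7 lower with control siRNA. Over all genes tested, 21.3% were higher and 23.0% lower with Brg1 siRNA, and 23.4% higher and 25.2% lower with control siRNA. The median log2 fold change of the 33 genes was -0.0078 with Brg1 siRNA and 0.069 with control siRNA, against -0.015 and -0.0066 over all genes tested. Plain library totals moved the median of all genes by 0.32 with Brg1 siRNA and 0.29 with control siRNA. The splits were then 17 higher and 1 lower with Brg1 siRNA, and 20 and 4 with control siRNA. The calls of falls with Dex thus depend on the scaling. Under these totals the median of the 33 genes, 0.32 and 0.37, was close to that of all genes tested, 0.31 and 0.28. These splits are therefore not read as a trait of the 33 genes. Without replicate 3 of Brg1 siRNA with LPS, 10 of the 33 genes were called with Brg1 siRNA.

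Scd2, a fatty acid desaturase, had the largest rise with Dex in both arms. The next largest were those of Acss2 with Brg1 siRNA and of the sterol gene Dhcr7 with control siRNA. The fatty acid genes had a median log2 fold change of 0.54 with Brg1 siRNA and 0.78 with control siRNA. With Brg1 siRNA 3 of 9 rose and 0 fell, and with control siRNA 4 rose and 0 fell. Scd2 rose with log2 fold changes of 1.86 (SE 0.085, adjusted p = 5.86e-12) with Brg1 siRNA and 2.73 (SE 0.085, adjusted p = 2.43e-14) with control siRNA. With Brg1 siRNA its mean was 663 ± 30.7 in vehicle, 66.2 ± 5.57 in LPS and 242 ± 13.2 in Dex+LPS. With control siRNA it was 1031 ± 14.9 in vehicle, 138 ± 15.2 in LPS and 918 ± 68.3 in Dex+LPS (SD, n = 4 in Dex+LPS and 3 otherwise). The Dex+LPS means lay between those of LPS and vehicle. Acss2 rose at 1.74 (SE 0.14, adjusted p = 7.4e-09) with Brg1 siRNA and at 1.11 (SE 0.14, adjusted p = 2.12e-06) with control siRNA.

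Fads1 read 198, 87.0, 169.9 and 199 in Dex+LPS with Brg1 siRNA and 337, 248, 351 and 367 with control siRNA, beside the LPS values above. Its response was not called with Brg1 siRNA at 0.54 (SE 0.22, adjusted p = 0.0573), where the groups overlapped, and was called with control siRNA at 1.37 (SE 0.22, adjusted p = 5.62e-05), where all Dex+LPS values exceeded all LPS values. Fads2 likewise had 0.17 (SE 0.18, adjusted p = 0.492) with Brg1 siRNA and rose with control siRNA at 0.83 (SE 0.18, adjusted p = 0.00102). The difference between the arms was not called for either gene (interaction of -0.83, SE 0.31, adjusted p = 0.181, for Fads1, and -0.67, SE 0.26, adjusted p = 0.195, for Fads2). Elovl6 with Brg1 siRNA, at 1.33, sat at the threshold (adjusted p = 0.05 as rounded) and lost its call in 11 of 18 alternatives.

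Sterol genes split under Dex. Dhcr7 read 69.8, 103, 47.0 and 83.1 in Dex+LPS with Brg1 siRNA and 107, 100.5, 99.7 and 92.6 with control siRNA. With control siRNA all these values lay above the LPS values, and with Brg1 siRNA replicate 3 lay within them. The log2 fold change was 0.73 (SE 0.24, adjusted p = 0.018) with Brg1 siRNA and 1.67 (SE 0.24, adjusted p = 1.26e-05) with control siRNA. The Brg1 siRNA call of Dhcr7 was lost without replicate 3 of the LPS group or replicate 2 of the Dex+LPS group (log2 fold change 0.44 and 0.57). Of the calls in the Dex response, 4 of 16 with Brg1 siRNA and 11 of 16 with control siRNA held in every alternative. Without the 4 libraries numbered from 18, those of Mvd, Stard4 and Elovl6 with Brg1 siRNA were lost. Acat2 and Mvd rose in both arms, at 0.56 and 0.52 with Brg1 siRNA and 0.54 and 0.61 with control siRNA. Hmgcs1, Sqle, Cyp51, Sc5d and Hsd17b7 fell in both arms, with log2 fold changes of -0.49 and -0.49 for Hmgcs1, -0.42 and -0.43 for Sqle, and -0.61 and -0.47 for Cyp51. Under plain library totals Cyp51 kept its call in both arms and Hmgcs1 with control siRNA, while Sqle and Sc5d lost theirs in both arms and Sc5d turned positive with Brg1 siRNA. Srebf2 fell at -0.59 (SE 0.11, adjusted p = 0.000158) with Brg1 siRNA and -0.64 (SE 0.11, adjusted p = 6.67e-05) with control siRNA, and Scap at -0.32 (SE 0.12, adjusted p = 0.0361) and -0.55 (SE 0.12, adjusted p = 0.000757). Insig1 (-0.19, SE 0.055, adjusted p = 0.00992) and Stard4 (-0.26, SE 0.090, adjusted p = 0.0226) were called lower with Brg1 siRNA and had -0.054 and -0.013 with control siRNA, but with plain totals both turned positive with Brg1 siRNA (0.14 and 0.067). With plain totals Srebf2 with Brg1 siRNA, and Scap in both arms, were not called, and Scap with Brg1 siRNA turned positive (0.016). Other calls with Brg1 siRNA were lost when single libraries were left out. That of Msmo1 was lost without LPS replicate 3 or Dex+LPS replicate 4. Hsd17b7 lost its call without replicate 1 or 3 of LPS or of Dex+LPS. Sc5d lost its call without LPS replicate 1 or 3 or Dex+LPS replicate 4. Scap lost its call without LPS replicate 1 or 2 or Dex+LPS replicate 1, 2 or 3. Stard4 lost its call without LPS replicate 1 or 3 or Dex+LPS replicate 1 or 4. The rise of Ebp with control siRNA was lost without LPS replicate 1 (adjusted p up to 0.0811 over the alternatives).

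The interaction tests ask whether the effect of Brg1 siRNA differs between treatments. Between LPS and vehicle 5 of the 33 genes were called, 2 with a positive and 3 with a negative difference, against 11.4% of all genes tested, and with plain library totals 1 and 3. Acss2 had an interaction of -1.56 (SE 0.20, adjusted p = 5.45e-05): LPS lowered it with Brg1 siRNA, at -0.65 (SE 0.14, adjusted p = 0.000599), and raised it with control siRNA, at 0.91 (SE 0.14, adjusted p = 1.82e-05). Acat2 had an interaction of -1.14 (SE 0.17, adjusted p = 0.000153), with LPS responses of 0.35 with Brg1 siRNA and 1.49 with control siRNA, and under plain library totals its response with Brg1 siRNA turned negative (-0.32). Insig1 (0.43, SE 0.083, adjusted p = 0.0019) and Stard4 (0.50, SE 0.14, adjusted p = 0.0219) had the opposite sign, and both were lower with Brg1 siRNA in vehicle and not called in LPS. Scd2 was just called, at -0.41 (SE 0.13, adjusted p = 0.0475).

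The interactions of Acss2, Acat2 and Insig1, 3 of the 5, were called in every alternative. That of Stard4 was lost without the 4 libraries numbered from 18, with plain library totals (0.40, adjusted p = 0.0726, the highest over the alternatives), and without replicate 3 of control siRNA with vehicle, replicate 3 of control siRNA with LPS, replicate 1 of Brg1 siRNA with vehicle or replicate 3 of Brg1 siRNA with LPS, with values between 0.42 and 0.48. That of Scd2 was lost in 14 of 23 alternatives: with DESeq2, with a pseudocount of 8, with no filter on low values, with only the groups compared in the fit, without any single vehicle library of either siRNA, without replicate 1 or 2 of control siRNA with LPS, and without replicate 1 or 3 of Brg1 siRNA with LPS, with values over these omissions between -0.45 and -0.35 (adjusted p up to 0.113). For Dex the interaction was called in 1 of the 33 genes, against 3.97% of all genes tested. This was Scd2, at -0.87 (SE 0.12, adjusted p = 0.000413), which rose less with Dex in the Brg1 siRNA arm and was called in every alternative.

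Of 25 other lipid genes listed for comparison, 24 passed the filter. With Brg1 siRNA 4 were higher and 5 lower in vehicle, 6 and 6 in LPS, and 6 and 8 in Dex+LPS. Their median log2 fold change was 0.014, -0.095 and -0.033. Acsl3, an acyl-CoA synthetase, fell in every treatment, with log2 fold changes of -1.72, -1.60 and -1.51. Elovl5, an elongase of polyunsaturated fatty acids, rose at 1.13 (SE 0.049, adjusted p = 1.98e-11) in LPS and 0.93 (SE 0.042, adjusted p = 2.96e-11) in Dex+LPS. Nr1h3, the oxysterol receptor LXR alpha, rose at 1.09 (SE 0.14, adjusted p = 7.55e-06) in LPS and 0.94 (SE 0.12, adjusted p = 6.81e-06) in Dex+LPS. In vehicle Soat1, which esterifies cholesterol, rose at 1.01 (SE 0.13, adjusted p = 1.55e-05) and Fabp5, a fatty acid carrier, at 0.91 (SE 0.063, adjusted p = 1.45e-08). These rises were called in the remaining treatments too, at smaller log2 fold changes (limma adjusted p at most 0.0162). Elovl5 and Nr1h3 had 0.56 and 0.63 in vehicle. Soat1 and Fabp5 had 0.42 and 0.36 in LPS, and 0.83 and 0.61 in Dex+LPS.

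With LPS, 10 of the 24 were higher and 9 lower with Brg1 siRNA, and 10 higher and 8 lower with control siRNA. Cyp27a1, a sterol hydroxylase, fell with log2 fold changes of -3.58 with Brg1 siRNA and -3.82 with control siRNA, and Me1, malic enzyme, rose at 2.36 and 2.20. Ch25h, which makes an oxysterol, rose at 3.56 and 3.26 with LPS and fell at -4.54 and -4.66 with Dex added, at normalized counts of at most 77.8. With Dex 4 were higher and 7 lower with Brg1 siRNA, and 8 higher and 5 lower with control siRNA.

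In the authors' deposited table of fold changes, at the same threshold of 0.05, the knockdown lowered 14 of the 33 genes in vehicle, 16 in LPS and 21 in Dex+LPS, and raised 0. The LPS response held 16 higher and 9 lower with Brg1 siRNA and 17 and 8 with control siRNA, and the Dex response 7 and 10 with Brg1 siRNA and 9 and 7 with control siRNA. The deposited calls and the limma calls had opposite directions for 0 of the 33 genes in each of these 7 comparisons. Shares of all genes called in the deposited table are not given here. The deposited counts therefore serve only to set these calls beside those of limma.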

How the data were processed

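RNA-seq of 20 mouse macrophage libraries in 6 groups was analysed from a single deposited table. Per the file headers its signal columns hold the authors' DESeq-normalized counts, the reads per gene divided by a size factor per library, and other columns hold the authors' log2 fold changes and adjusted p-values for 7 comparisons. Per the submitters' processing notes, Salmon 1.4.0, DESeq2, DESeq and R 4.1.0 were used with builds mm10 and GRCm38.p6, with no roles given. Per the labels' protocols the kit was a stranded mRNA kit; whether counting used strand is not given in the sources used here.

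Multiplying by a size factor read from the steps of the low values recovered whole reads: between 99.90% and 99.99% of the values above 0 in a library came within 0.01 of a whole number, which gives 13.69 M to 18.71 M reads per library. The 12061 genes that reached 10 normalized counts in 3 or more libraries were tested with limma 3.58.1 (R 4.3.3, trend on) on log2(normalized count + 1) in 1 fit over the 6 groups, with Benjamini-Hochberg adjustment over all genes and a threshold of 0.05. Fold changes on this scale understate the change of low genes. The 9 comparisons are the knockdown in 3 treatments, the LPS and Dex responses with each siRNA, and the interactions of knockdown with LPS and with Dex. The procedure was tested on simulated data. As alternatives, 11 other settings, among them edgeR 4.0.16 and DESeq2 1.42.0 on the recovered reads, and the omission of each of the 20 libraries were run. An adjusted p in the text without a named test is limma's.

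Values per sample are given for the 4 called genes with the largest fold change in each knockdown comparison and in the LPS and Dex responses with control siRNA, for genes with an interaction, and for Srebf1, Srebf2, Scap, Insig1 and Insig2. Shared sequence was counted as the share of a gene's exonic 31-base words found in other genes (GRCm38). The genes and lists were chosen with earlier results of these data known.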

Additional observations from a re-analysis of the deposited data

Results flagged for a closer look

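In groups of 4 samples, the highest or lowest value was checked for its distance to the others with Dixon's ratio, over 34 groups, of which chance picks about 1 in 20. Stard4 in replicate 2 of control siRNA with Dex+LPS, at 1085 normalized counts, lay far under the other 3 libraries of its group. Scap in replicate 4 of control siRNA with Dex+LPS, at 820.3 normalized counts, lay far above the other 3. Without the first of these libraries Stard4 was called lower with Brg1 siRNA in Dex+LPS, and without the second Scap was called higher there.

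Effects of Brg1 siRNA that differed between LPS and vehicle by the limma interaction test were those of Acss2 (log2 difference -1.56), Acat2 (-1.14), Stard4 (0.50), Insig1 (0.43) and Scd2 (-0.41). Between Dex+LPS and LPS the effect on Scd2 differed by -0.87 on the log2 scale.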

How the results depend on the processing

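Over 31 alternatives, 62 of 81 named gene results kept their direction and their side of the threshold. Of 1449 recomputed values, 1371 did so, 73 lost their call and 5 reversed. All 5 reversals came from scaling to plain library totals: Acat2 (-0.32) and Scap (-0.098) in the LPS response with Brg1 siRNA, and Stard4 (0.067), Insig1 (0.14) and Scap (0.016) in the Dex response with Brg1 siRNA; this scaling moves all genes together, by the medians given with each response. With only the groups compared in the fit, 2 genes instead of 1 were called in the interaction with Dex, and the cause was not tested. Leaving out single libraries gave 10 to 16 calls instead of 16 in the Dex response with Brg1 siRNA, lowest without Brg1 siRNA with LPS replicate 3. It gave 3 to 7 instead of 5 in the interaction with LPS, lowest without control siRNA with vehicle replicate 3, Brg1 siRNA with vehicle replicate 1 or Brg1 siRNA with LPS replicate 3. In the interaction with Dex it gave 1 to 2 instead of 1, highest without control siRNA with Dex+LPS replicate 2 or Brg1 siRNA with LPS replicate 3.

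Correlations of the deviations of same-numbered samples were -0.17 to 0.41 and exceeded 0.1 in 1 pair, replicate 4 in Dex+LPS, whose libraries both have numbers from 18, so the numbers were not taken as pairs. With a replicate block 16, 17 and 21 genes were called in the knockdown comparisons (13, 16 and 20 without it), 26 and 29 in the LPS responses with Brg1 and control siRNA (26 and 27), 15 and 16 in the Dex responses (16 and 16), and 5 and 1 in the interactions (5 and 1). Low counts limit Elovl6 and Scd1 in LPS, where few reads lie behind the Brg1 siRNA values.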
